A study of Mus musculus with 10 samples.

Results

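The genes described here are 40 genes of ribosome biogenesis, the making of ribosomes in the nucleolus. They were taken as a named list, and each was read from the probe set whose only gene symbol was that gene, or from the brightest such probe set where there were several. All 40 were found among the 18820 genes that could be named. The list was not picked by a measured difference, but it was chosen with earlier results of these data known, so it was not blind to them. None of the 40 lay in the dimmest 30% of genes, so no member was lost to a filter on low values.

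The samples were epithelial cells sorted from mouse intestine, in which an Lgr5-EGFP-ires-CreERT2 allele reports the promoter of Lgr5, a receptor of crypt stem cells, and a Ki67-TagRFP fusion reports Ki67, a protein of cycling cells. Sorting on green and red fluorescence gave 4 groups, with 2 arrays for Lgr5-high Ki67-high, 2 for Lgr5-high Ki67-low, 4 for Lgr5-medium Ki67-high and 2 for Lgr5-medium Ki67-low. No treatment, age or time is given, every group shares the same reporters, and it is not given whether the replicates are different mice, so the p-values measure only the spread between these arrays, which may be technical. Each group is a gate on reporter brightness and not a purified cell type. Because each array measured RNA from many cells, fewer cells of a type and less RNA per cell cannot be told apart.

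A ribosome begins as a long precursor RNA that RNA polymerase I (Pol I) transcribes from the ribosomal DNA repeats. Small nucleolar ribonucleoproteins (snoRNPs) modify this precursor, and separate sets of processing factors cut and fold it into the small and the large subunit. The genes for this machinery are known targets of the transcription factor MYC, are active in growing cells, and are needed by the dividing cells of the intestinal crypt.

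Promoter sequence was examined because these genes are known to be transcribed in concert. RefSeq promoter windows on GRCm38.p6, from 250 bases before to 50 bases after the start, were at hand for 34 of the 40 genes. The MYC-type E-box CACGTG stood in the window of 5 of these 34 genes (14.7%), against 8.09% of all genes with a window. The ETS-type motif CCGGAAGT stood in 7 of 34 (20.6%), against 4.31% of all genes. The palindrome known as the ZBTB33 (Kaiso) motif, 10 bases long, stood in none of the 34 and in 0.525% of all genes, which says only that these letters are not in the windows. Both strands were searched, and no member held both an E-box and the ETS-type motif. A match describes letters in a window and not a bound site. The 110 bases before the start are shown for the 6 genes that carry a motif there, with the motif in capitals, each 5′ to 3′ on the gene's strand. They are Nop2 (chr6:125131773-125131882, plus strand), Gar1 (chr3:129831397-129831506, minus strand), Nhp2 (chr11:51619663-51619772, plus strand), Polr1c (chr17:46248046-46248155, minus strand), Heatr1 (chr13:12395265-12395374, plus strand) and Nip7 (chr8:107056767-107056876, plus strand).
Nop2: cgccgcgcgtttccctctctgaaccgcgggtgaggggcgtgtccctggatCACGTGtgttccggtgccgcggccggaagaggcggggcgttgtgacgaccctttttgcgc
Gar1: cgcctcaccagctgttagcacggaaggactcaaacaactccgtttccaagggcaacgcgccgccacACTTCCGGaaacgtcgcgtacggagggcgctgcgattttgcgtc
Nhp2: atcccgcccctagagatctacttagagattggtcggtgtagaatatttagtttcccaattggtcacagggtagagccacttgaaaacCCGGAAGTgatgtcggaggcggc
Polr1c: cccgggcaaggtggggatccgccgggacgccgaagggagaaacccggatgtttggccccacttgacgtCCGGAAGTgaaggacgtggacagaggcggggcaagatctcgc
Heatr1: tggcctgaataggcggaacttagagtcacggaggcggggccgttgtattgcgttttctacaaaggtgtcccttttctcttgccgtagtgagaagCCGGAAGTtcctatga
Nip7: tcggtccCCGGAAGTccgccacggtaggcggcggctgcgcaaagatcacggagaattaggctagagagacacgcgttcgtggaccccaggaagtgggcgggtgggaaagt
The E-box of Nop2 begins 60 bases before its start. The ETS-type motif begins 44 bases before the start in Gar1, where it lies on the opposite strand, 23 in Nhp2, 42 in Polr1c, 16 in Heatr1 and 103 in Nip7. The 4 other genes with an E-box were Mybbp1a, Pes1, Pno1 and Wdr43, where it lay downstream of the start, and the other genes with the ETS-type motif were Noc2l and Rrp15.

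The labels were first set against the sorted genes. Lgr5 measured 9.39 and 9.38 in the Lgr5-high Ki67-high arrays and 10.02 and 10.43 in Lgr5-high Ki67-low. In Lgr5-medium cells it measured 7.39, 7.56, 7.29 and 7.32 with high Ki67 and 8.76 and 8.41 with low Ki67. All values here are the deposited expression values, read as log2, and arrays are given in the order of their replicate numbers. Lgr5 was 1.82 ± 0.11 higher (log2, standard error) in Lgr5-high cells averaged over both Ki67 levels (limma, adjusted p = 0.000193). The Ki67 gene, Mki67, was 0.29 ± 0.12 lower in Ki67-low than in Ki67-high cells at medium Lgr5, which did not pass (adjusted p = 0.249) but did without Lgr5-medium Ki67-high replicate 4 (-0.37, adjusted p = 0.0463). Among Lgr5-high cells Mki67 differed by -0.11 ± 0.13, and its mean in Lgr5-high Ki67-low (10.08 ± 0.03, SD, n = 2) was level with that in Lgr5-medium Ki67-high cells (10.08 ± 0.19, SD, n = 4). Lgr5-medium Ki67-high replicate 4 stood apart. Its mean correlation with the other 9 arrays was 0.986 over all 35556 probe sets, and its array weight in limma was 0.294, both the lowest of the 10. This array was the highest of the 10 for 12 of the 40 genes and the lowest for 9. Results that rest on it are therefore also given without it. Markers of crypt epithelium were all measured. In limma 2 of 10, Krt18 and Lgr5, passed as higher in Lgr5-medium Ki67-low than in Lgr5-medium Ki67-high cells, as did 499 of all 18820 genes. Ascl2 also had a higher mean there (7.63 against 7.17). The mean deviation of the 10 markers was 0.03 to 0.05 in Lgr5-medium Ki67-low and -0.21 to -0.13 in Lgr5-medium Ki67-high arrays. Lgr5, the gene of the sort (8.58 against 7.39), Krt18 (11.91 against 11.21) and Ascl2 made up this whole gap. The other markers, averaged, did not measure higher in Lgr5-medium Ki67-low cells.

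Ribosome biogenesis genes were lowest in Lgr5-medium Ki67-low cells. This group had the lowest mean of the 4 for 35 of the 40 genes, against 32.8% of all genes, and the highest for 0 of 40, against 20.5%. Averaged over the 40 genes, its arrays lay at -0.15 and -0.17 from each gene's mean. The Lgr5-high Ki67-high arrays lay at 0.06 and 0.06, Lgr5-high Ki67-low at 0.06 and 0.13, and Lgr5-medium Ki67-high at -0.04, -0.02, 0.04 and 0.04. Both Lgr5-medium Ki67-low arrays were below all 8 other arrays for 14 of the 40 genes (35%), which held for 5.58% of all genes, a count chosen after the values were seen. Without Lgr5-medium Ki67-high replicate 4 it was 16 of 40, against 7.23% of all genes. The differences were small, and of 7 comparisons only one, Lgr5-high against Lgr5-medium averaged over Ki67, gave a member past the adjusted threshold of 0.05, namely Ncl.

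**Figure D1:**
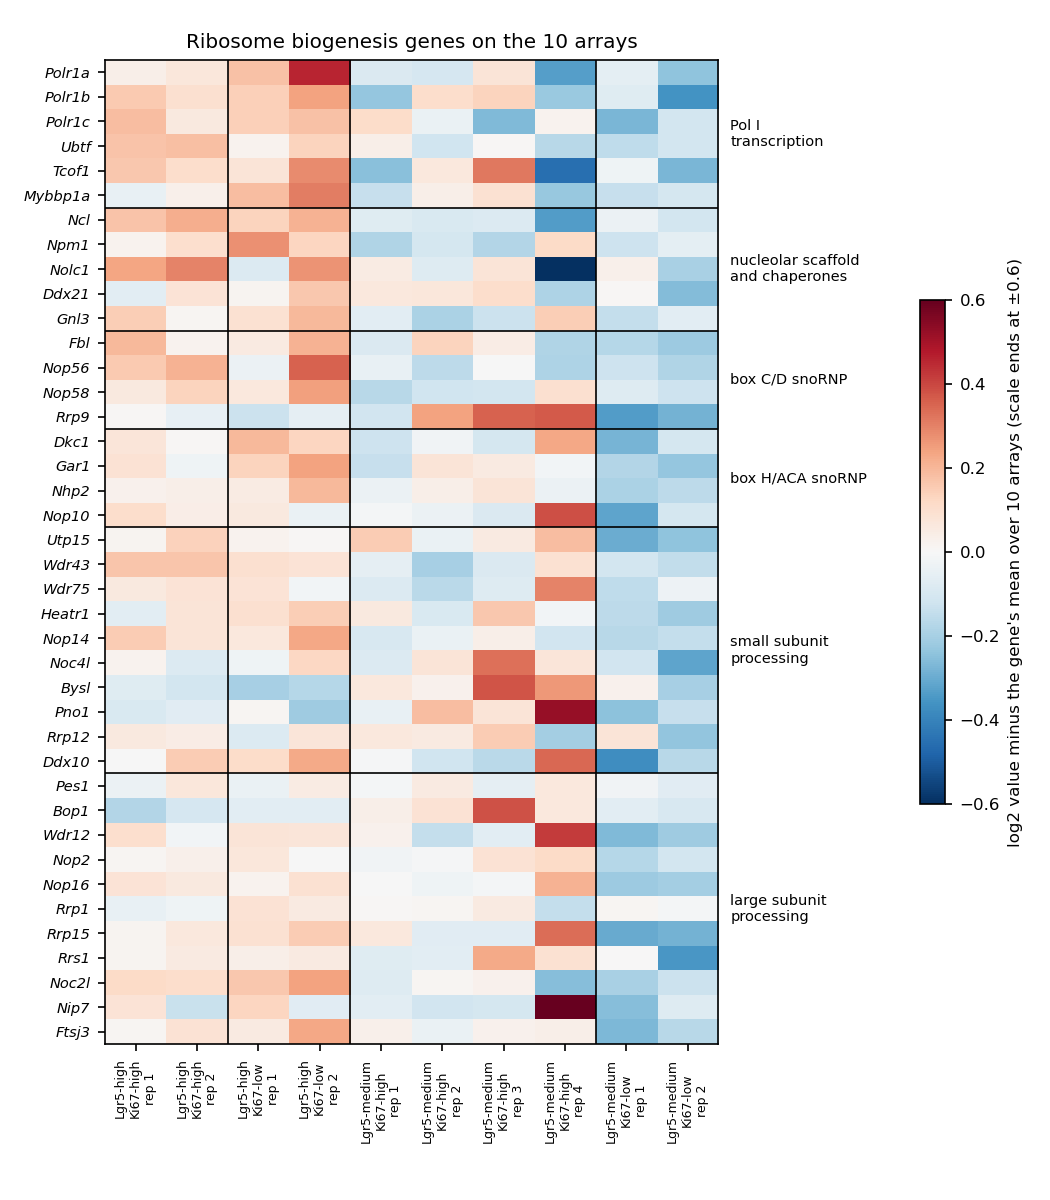
Heat map of the 40 genes (rows, by role) on the 10 arrays (columns, by sort group). Colour is the log2 difference from each gene's mean over the 10 arrays, and the 2 Lgr5-medium Ki67-low columns hold the lowest group mean for 35 of the 40 genes.

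The clearest difference lay between Lgr5-high and Lgr5-medium cells with low Ki67. Here 39 of 40 genes measured higher in the Lgr5-high arrays, with a median difference of 0.27 (log2), or 1.20-fold. Over all genes tested 57.3% lay above 0, and the median was 0.03. The 2 groups did not overlap, with Lgr5-high higher, for 34 of the 40 genes (85%), against 27.8% of all genes. By limma none of the 40 passed after Benjamini-Hochberg adjustment over all genes (2.84% of all genes did), while 20 of 40 had an unadjusted p under 0.05, against 14.6% of all genes. The median standard error of the members was 0.12. Lgr5-medium Ki67-high replicate 4 enters here only through the shared estimate of spread. Without it 2 of 40 genes passed, Noc2l and Rrp15, against 4.89% of all genes. The exception to the direction was Bysl, a factor of late small-subunit assembly, at -0.10 ± 0.13.

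Outside the Lgr5-high gate, Ki67-low cells were compared with Ki67-high cells at medium Lgr5. In this comparison 37 of 40 genes measured lower in Ki67-low cells, with a median of -0.17, against 55.4% of all genes below 0 and a median of -0.02. The groups did not overlap, with Ki67-low lower, for 16 of 40 genes (40%; 13.9% of all genes), and no member stood apart in the other direction (10.5% of all genes). Without replicate 4 of the Ki67-high group the count was 19, against 19.1% of all genes. None of the 40 passed in limma (3.58% of all genes did), and 12 had an unadjusted p under 0.05 (15.7% of all genes). The 3 genes above 0 were Ncl, Nolc1 and Rrp1. Without replicate 4 they were 5, Gnl3, Ncl, Nop58, Npm1 and Wdr75, and quantile normalization gave 6. Centring each array on its median moved the median of all genes from -0.02 to -0.15 here, and then all 40 genes lay below 0, with a median of -0.30. Centring shifts every gene of a comparison by the same amount, so the members' position relative to all genes could not change and is not a check on the scaling. With that centring 6 members passed, Ftsj3, Nhp2, Nop16, Rrp15, Rrp9 and Utp15, against 6.29% of all genes. Over all genes, centring raised the number that passed as lower from 175 to 767. Rrp9 alone passed without Lgr5-medium Ki67-high replicate 1 (limma, adjusted p = 0.00461), where 3.41% of all genes did.

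Among Lgr5-high cells, which the study title calls crypt base columnar cells of fast and slow cycling, Ki67-low and Ki67-high arrays differed little. The median difference was 0.04, with 26 of 40 genes higher in Ki67-low cells, against 48% of all genes. Leaving out replicate 2 of the Ki67-high group moved that median to 0.0193, and leaving out replicate 1 or replicate 2 of the Ki67-low group moved it to 0.0814 or 0.0106. Groups did not overlap for 11 genes with Ki67-low higher (27.5%; 18.2% of all genes) and for 4 with Ki67-low lower (10%; 20.2% of all genes). None of the 40 passed in limma (0.00531% of all genes did), and none had an unadjusted p under 0.05 (4.53% of all genes). The largest was Polr1a at 0.26, with a 95% interval from -0.06 to 0.58, so a difference of that size could not be told from none with 2 arrays against 2.

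Lgr5-high cells were also compared with Lgr5-medium cells at high Ki67. The median difference was 0.04 and 26 of 40 genes lay above 0 (53.1% of all genes), a direction that was not firm, since centring the arrays gave 15 of 40 above 0 and quantile normalization 32. Groups did not overlap for 7 genes with Lgr5-high higher (17.5%; 14.2% of all genes), and these were Ncl, Noc2l, Nolc1, Nop14, Nop56, Ubtf and Wdr43. They did not overlap in the other direction for Bop1, Bysl and Pno1 (7.5%; 12.9% of all genes). Without Lgr5-medium Ki67-high replicate 4 these counts were 15 and 4, against 19.8% and 17.8% of all genes. None of the 40 passed in limma (0.935% of all genes did), and 6 had an unadjusted p under 0.05 (15.2% of all genes). The share of all genes that passed rested on single arrays. The 176 genes became 0 or 4 when replicate 1 or 2 of the Lgr5-high Ki67-high group was left out. They became 27, 44 or 327 when replicate 2, 3 or 4 of Lgr5-medium Ki67-high was, and 88 when either array of Lgr5-medium Ki67-low was.

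**Figure D2:**
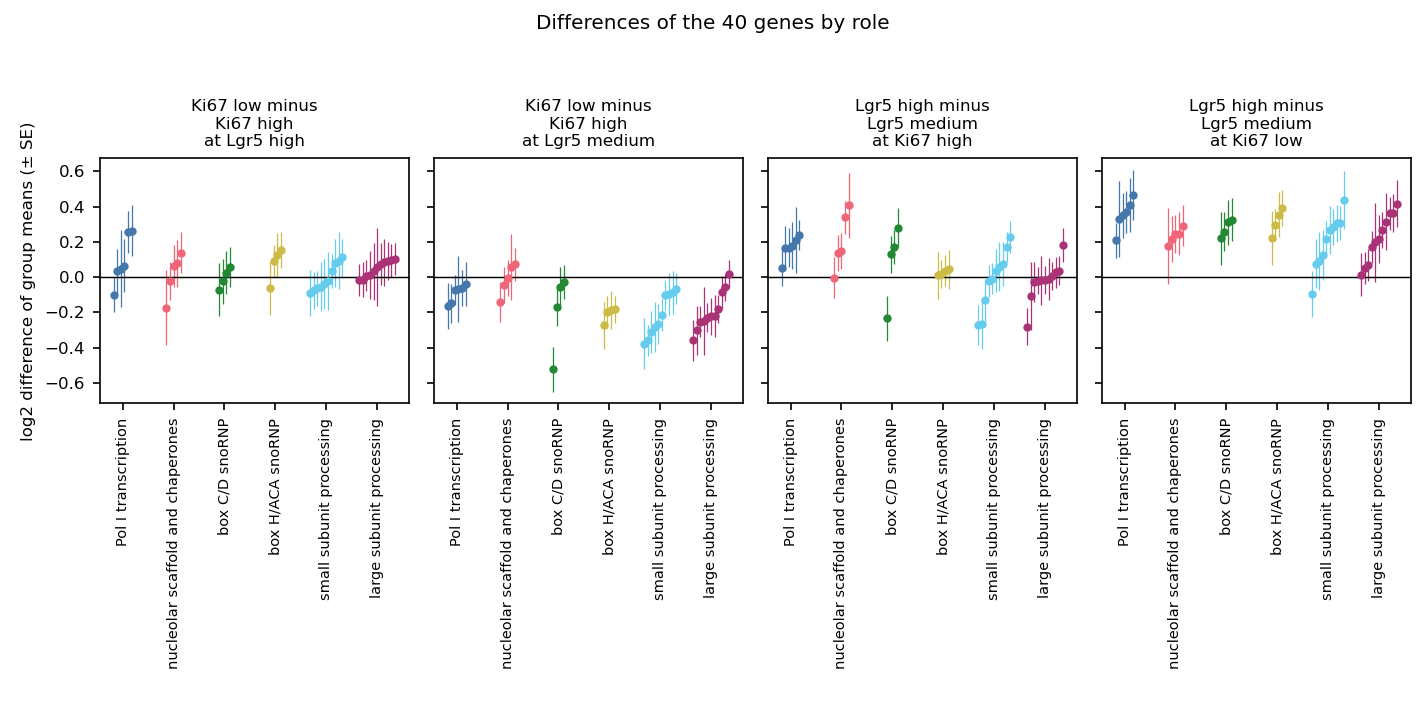
Log2 difference of group means with its standard error (y axis) for each of the 40 genes, grouped by role (x axis), in the 4 comparisons of 2 groups. With low Ki67, 39 of 40 genes lie above 0 for Lgr5-high minus Lgr5-medium; with high Ki67, 26 do as deposited but 15 after centring the arrays.

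Averaged over both Ki67 levels, 36 of 40 genes measured higher in Lgr5-high cells, with a median of 0.19, against 56.3% of all genes above 0. The 4 below 0 were Bop1, Bysl, Pno1 and Rrp9. Ncl passed (2.4% of all genes passed as higher, 3.52% as lower and 5.92% in either direction), and 20 of 40 genes had an unadjusted p under 0.05 (20% of all genes). Without Lgr5-medium Ki67-high replicate 4, 8 of 40 passed, all as higher, against 9.08% of all genes (748 genes higher and 960 lower). Without any other single array of that group none of the 40 did. Averaged over both Lgr5 levels, 32 of 40 genes measured lower in Ki67-low cells, with a median of -0.06 (53.2% of all genes were below 0). None passed in limma (1.24% of all genes did), and 2 had an unadjusted p under 0.05 (11.9% of all genes). Rrp9 was again the exception without Lgr5-medium Ki67-high replicate 1, where it passed.

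Whether the Ki67 difference itself changed with Lgr5 level was tested as an interaction. For 36 of 40 genes the Ki67-low minus Ki67-high difference was larger at high than at medium Lgr5 (54.5% of all genes), with a median of 0.21. None of the 40 passed in limma (1.04% of all genes did), and 6 had an unadjusted p under 0.05 (8.08% of all genes). The smallest adjusted p was 0.494, for Gar1, at 0.35 ± 0.14. A difference in the Ki67 effect between the Lgr5 levels was therefore not shown for any single member. The 4 genes below 0 were Ncl, Nolc1, Ubtf and Wdr43, of which only Nolc1 was below 0 after centring the arrays.

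**Figure D3:**
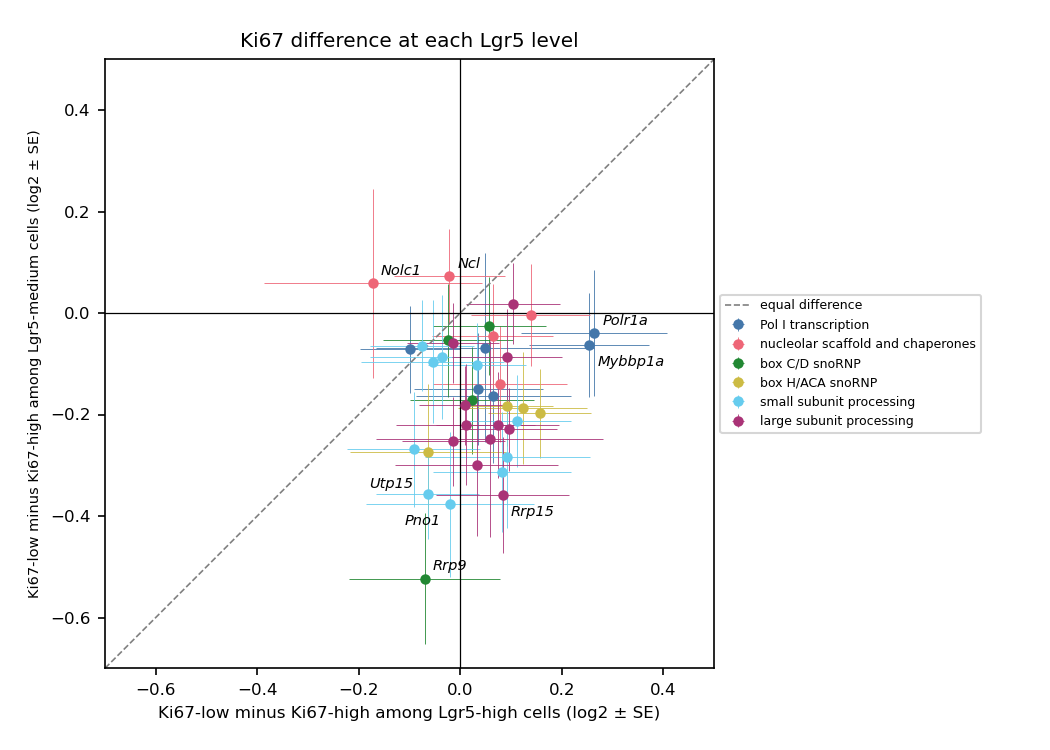
Ki67-low minus Ki67-high difference of each gene in Lgr5-high cells (x axis) and in Lgr5-medium cells (y axis), log2 with standard errors, coloured by role. Most points lie below the dashed line of equal difference (36 of 40), and Rrp9 is lowest on the y axis at -0.52.

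Genes of Pol I transcription showed the largest median difference by Lgr5 among Ki67-low cells, at 0.36, with 6 of 6 higher in Lgr5-high cells. With high Ki67 the median was 0.17 and 6 of 6 were higher, or 5 of 6 after centring the arrays. This rested in part on Lgr5-medium Ki67-high replicate 4, the lowest of the 10 arrays for 4 of the 6 genes (mean deviation -0.23). Without it the median was smaller and Mybbp1a was no longer higher. Polr1a, the largest catalytic subunit of Pol I, measured 7.57 and 7.60 in Lgr5-high Ki67-high, 7.71 and 7.99 in Lgr5-high Ki67-low, 7.44, 7.43, 7.61 and 7.20 in Lgr5-medium Ki67-high, and 7.47 and 7.29 in Lgr5-medium Ki67-low arrays. Its Lgr5-high Ki67-low arrays were the highest of all 10. The difference between the Ki67-low groups was 0.47 ± 0.14, or 1.38-fold (95% interval 0.15 to 0.79, limma adjusted p = 0.139). Ubtf, which binds the ribosomal DNA promoter and activates Pol I, measured 9.10 and 9.11, 8.95 and 9.06, 8.96, 8.81, 8.93 and 8.76, and 8.78 and 8.82 in the same order of groups. Its Lgr5-high arrays overlapped the Lgr5-medium arrays at one point only, 8.95 against 8.96. The Lgr5 difference averaged over Ki67 was 0.22 ± 0.07 (adjusted p = 0.0784). Mybbp1a, a nucleolar regulator of ribosomal RNA synthesis, measured 8.63 and 8.70 in Lgr5-high Ki67-high, 8.86 and 8.98 in Lgr5-high Ki67-low, 8.53, 8.71, 8.76 and 8.44 in Lgr5-medium Ki67-high, and 8.53 and 8.56 in Lgr5-medium Ki67-low arrays. Like Polr1a it was highest in the Lgr5-high Ki67-low arrays, 0.37 ± 0.12 above Lgr5-medium Ki67-low (adjusted p = 0.156). The other Pol I genes between the Ki67-low groups were Polr1b at 0.41 ± 0.15, Polr1c, a subunit shared with RNA polymerase III, at 0.35 ± 0.13, and Tcof1, the treacle protein that works with Ubtf, at 0.33 ± 0.22.

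Nucleolar scaffold proteins and chaperones held the only member that passed. Ncl, the abundant nucleolar RNA-binding protein nucleolin, measured 11.05 and 11.10 in Lgr5-high Ki67-high, 11.02 and 11.09 in Lgr5-high Ki67-low, 10.81, 10.79, 10.80 and 10.55 in Lgr5-medium Ki67-high, and 10.85 and 10.77 in Lgr5-medium Ki67-low arrays. All 4 Lgr5-high arrays lay above all 6 Lgr5-medium arrays, which held for 3 of the 40 genes, the others being Nop14 and Noc2l (7.5%; 3.75% of all genes). Without Lgr5-medium Ki67-high replicate 4 it held for 11 of 40 (27.5%; 5.36% of all genes). Averaged over Ki67, Ncl was 0.29 ± 0.07 higher in Lgr5-high cells (limma, adjusted p = 0.0428). The call was lost with quantile normalization (adjusted p = 0.0736), with the replicate block (adjusted p = 0.0818), with all probe sets tested (adjusted p = 0.0944) and when any array other than Lgr5-medium Ki67-high replicate 4 was left out (adjusted p from 0.054 to 0.172). Without that replicate the adjusted p was 0.0147. The estimate stayed between 0.26 and 0.31 across all settings tried. By Ki67 the differences of Ncl were within their error, at -0.02 ± 0.11 in Lgr5-high cells and 0.07 ± 0.09 in Lgr5-medium cells, with 95% intervals from -0.26 to 0.22 and from -0.14 to 0.28. Npm1, the nucleolar chaperone nucleophosmin, measured 11.20 and 11.28 in Lgr5-high Ki67-high, 11.45 and 11.31 in Lgr5-high Ki67-low, 11.00, 11.07, 11.00 and 11.29 in Lgr5-medium Ki67-high, and 11.06 and 11.12 in Lgr5-medium Ki67-low arrays. Only replicate 4 of the Lgr5-medium Ki67-high group reached the Lgr5-high arrays. Npm1 has processed pseudogenes and 4 probe sets here, all with positive differences between the Ki67-low groups, from 0.21 to 0.34. Gnl3, nucleostemin, a nucleolar GTPase known from stem cells, measured 8.61 and 8.47 in Lgr5-high Ki67-high, 8.55 and 8.65 in Lgr5-high Ki67-low, 8.40, 8.27, 8.33 and 8.61 in Lgr5-medium Ki67-high, and 8.32 and 8.40 in Lgr5-medium Ki67-low arrays. Replicate 4 was again the only Lgr5-medium array within the Lgr5-high range, and the Lgr5 difference averaged over Ki67 was 0.19 ± 0.08 (adjusted p = 0.206). Nolc1, a chaperone of snoRNPs, varied widely between arrays, at 8.78 and 8.85 in Lgr5-high Ki67-high, 8.47 and 8.82 in Lgr5-high Ki67-low, 8.60, 8.47, 8.63 and 7.94 in Lgr5-medium Ki67-high, and 8.58 and 8.35 in Lgr5-medium Ki67-low arrays. Its Lgr5 difference with high Ki67, 0.41 ± 0.19, was the largest of the 40 genes but included the low replicate 4 (adjusted p = 0.339). Ddx21, a nucleolar RNA helicase, was 0.22 ± 0.13 higher in Lgr5-high than in Lgr5-medium cells with low Ki67.

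Box C/D snoRNPs add ribose methyl groups to ribosomal RNA. Nop56, a core protein of these particles, measured 10.18 and 10.23 in Lgr5-high Ki67-high, 9.99 and 10.38 in Lgr5-high Ki67-low, 9.98, 9.87, 10.02 and 9.84 in Lgr5-medium Ki67-high, and 9.90 and 9.84 in Lgr5-medium Ki67-low arrays. The Lgr5-high Ki67-low pair spanned 0.39, since replicate 1 lay inside the Lgr5-medium range. Averaged over Ki67 the Lgr5 difference was 0.29 ± 0.08 (adjusted p = 0.0742), and it passed without that replicate (adjusted p = 0.0221). Nop58, its partner in the core, measured 8.64 and 8.71 in Lgr5-high Ki67-high, 8.64 and 8.82 in Lgr5-high Ki67-low, 8.41, 8.46, 8.47 and 8.67 in Lgr5-medium Ki67-high, and 8.50 and 8.45 in Lgr5-medium Ki67-low arrays. Only replicate 4 of Lgr5-medium Ki67-high overlapped the Lgr5-high arrays, and the averaged difference was 0.21 ± 0.07 (adjusted p = 0.128). Rrp9, a protein of the U3 particle that guides early cleavage of the precursor, had another pattern. It measured 7.19 and 7.13 in Lgr5-high Ki67-high, 7.05 and 7.12 in Lgr5-high Ki67-low, 7.06, 7.42, 7.53 and 7.55 in Lgr5-medium Ki67-high, and 6.84 and 6.89 in Lgr5-medium Ki67-low arrays. Its highest values were 3 of the Lgr5-medium Ki67-high arrays and its lowest both Lgr5-medium Ki67-low arrays. The Ki67 difference at medium Lgr5 was -0.52 ± 0.13, or 1.44-fold (95% interval -0.81 to -0.24, adjusted p = 0.0584). Fbl, the methyltransferase fibrillarin, was 0.33 ± 0.12 higher in Lgr5-high than Lgr5-medium cells with low Ki67 and had 2 probe sets of the same sign.

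Box H/ACA snoRNPs convert uridine to pseudouridine, and their 4 core proteins behaved alike in direction. Between the Ki67-low groups 4 of 4 were higher in Lgr5-high cells, with a median of 0.33, and at medium Lgr5 4 of 4 were lower in Ki67-low cells, with a median of -0.19. Gar1, whose promoter is shown above, measured 7.67 and 7.56 in Lgr5-high Ki67-high, 7.72 and 7.82 in Lgr5-high Ki67-low, 7.45, 7.66, 7.64 and 7.57 in Lgr5-medium Ki67-high, and 7.41 and 7.35 in Lgr5-medium Ki67-low arrays. The Lgr5-high Ki67-low arrays were the highest of the 10 and the Lgr5-medium Ki67-low arrays the lowest. Their difference was 0.39 ± 0.10, or 1.31-fold (95% interval 0.16 to 0.62, adjusted p = 0.0813), and it passed after centring the arrays (adjusted p = 0.0464). Nhp2 measured 8.99 and 9.00 in Lgr5-high Ki67-high, 9.01 and 9.16 in Lgr5-high Ki67-low, 8.92, 8.99, 9.04 and 8.93 in Lgr5-medium Ki67-high, and 8.77 and 8.81 in Lgr5-medium Ki67-low arrays. Here only the Lgr5-medium Ki67-low arrays stood apart, 0.30 ± 0.09 below Lgr5-high Ki67-low (adjusted p = 0.14). Dkc1, the pseudouridine synthase dyskerin, measured 8.48 and 8.41 in Lgr5-high Ki67-high, 8.60 and 8.54 in Lgr5-high Ki67-low, 8.28, 8.38, 8.30 and 8.64 in Lgr5-medium Ki67-high, and 8.13 and 8.30 in Lgr5-medium Ki67-low arrays. Its highest array was replicate 4 of Lgr5-medium Ki67-high, and the difference between the Ki67-low groups was 0.35 ± 0.13 (adjusted p = 0.211). Nop10, the smallest core protein, was 0.22 ± 0.15 higher in the same comparison.

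**Figure D4:**
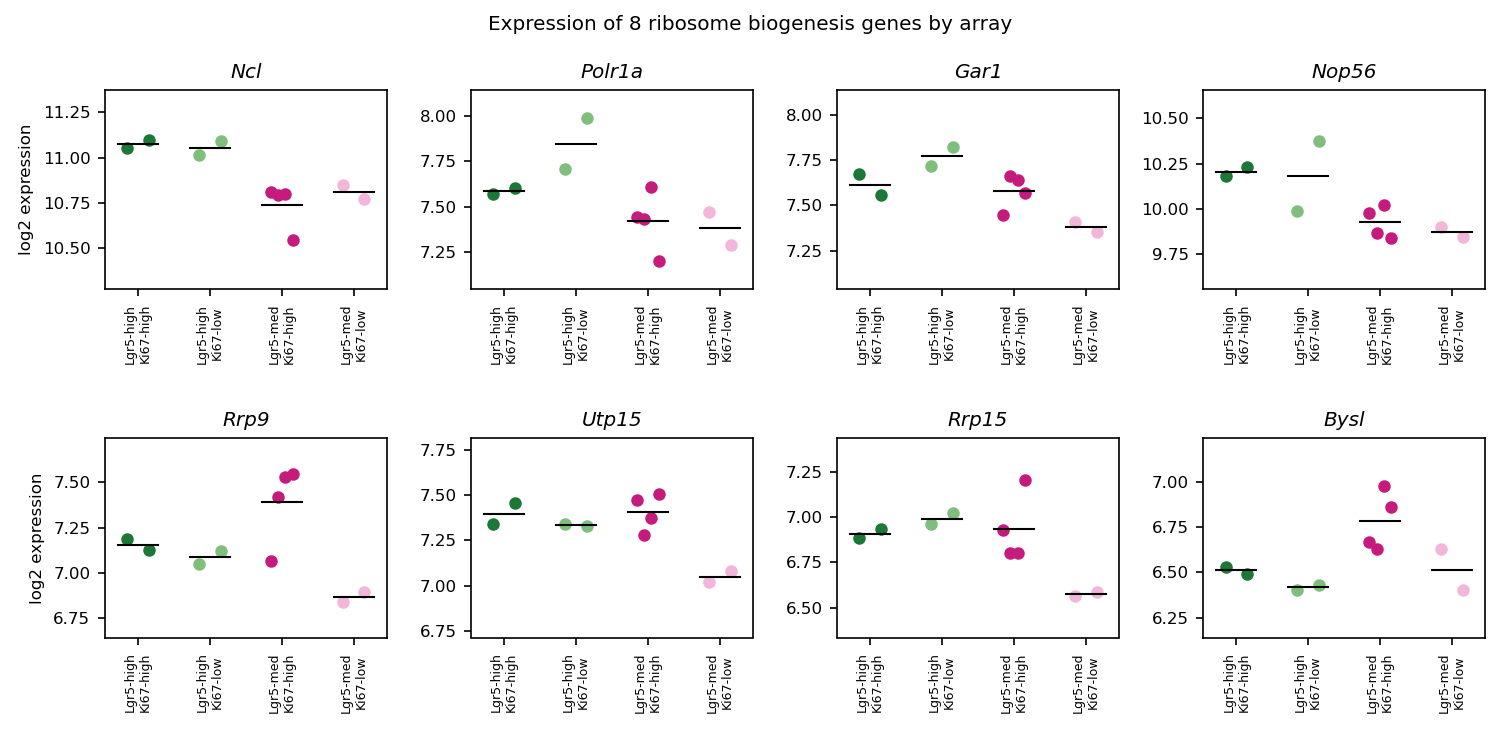
Log2 expression (y axis) of 8 genes on each array (points) by sort group (x axis), with group means as bars. Ncl separates by Lgr5 level, while Gar1, Rrp9, Utp15 and Rrp15 are lowest on both Lgr5-medium Ki67-low arrays.

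Small-subunit processing factors were 9 of 10 higher in Lgr5-high than in Lgr5-medium cells with low Ki67, with a median of 0.24. At medium Lgr5, 10 of 10 were lower in Ki67-low cells, with a median of -0.24. Without Lgr5-medium Ki67-high replicate 4, Wdr75 lay above 0 in that comparison. Utp15, a component of the early complex that joins transcription to processing, measured 7.34 and 7.46 in Lgr5-high Ki67-high, 7.34 and 7.33 in Lgr5-high Ki67-low, 7.47, 7.28, 7.37 and 7.51 in Lgr5-medium Ki67-high, and 7.02 and 7.08 in Lgr5-medium Ki67-low arrays. Only the Lgr5-medium Ki67-low arrays were low. The Ki67 difference at medium Lgr5 was -0.36 ± 0.09, or 1.28-fold (95% interval -0.55 to -0.16, adjusted p = 0.0581). Nop14, a factor of the small-subunit processome, measured 7.60 and 7.52 in Lgr5-high Ki67-high, 7.51 and 7.67 in Lgr5-high Ki67-low, 7.34, 7.40, 7.48 and 7.33 in Lgr5-medium Ki67-high, and 7.27 and 7.30 in Lgr5-medium Ki67-low arrays. Its arrays separated by Lgr5 level with no overlap, at 0.24 ± 0.06 (adjusted p = 0.0598). Wdr43, of the same early complex as Utp15, measured 9.41 and 9.42 in Lgr5-high Ki67-high, 9.35 and 9.33 in Lgr5-high Ki67-low, 9.19, 9.05, 9.16 and 9.34 in Lgr5-medium Ki67-high, and 9.14 and 9.10 in Lgr5-medium Ki67-low arrays. It followed Lgr5 except for replicate 4, at 0.22 ± 0.07 (adjusted p = 0.0911), and passed without that replicate (adjusted p = 0.0277). Bysl, or bystin, went the other way, at 6.53 and 6.49 in Lgr5-high Ki67-high, 6.41 and 6.43 in Lgr5-high Ki67-low, 6.67, 6.63, 6.98 and 6.86 in Lgr5-medium Ki67-high, and 6.63 and 6.40 in Lgr5-medium Ki67-low arrays. Its 4 Lgr5-medium Ki67-high arrays lay above all Lgr5-high arrays, as was the case for Bop1 and no other member (5%; 8.44% of all genes). Between the Ki67-low groups, the helicase gene Ddx10 had the largest difference of this role, at 0.44 ± 0.16. Heatr1 stood at 0.30 ± 0.11 and Noc4l at 0.27 ± 0.14. Wdr75 (0.13 ± 0.14), Pno1 (0.09 ± 0.17) and Rrp12 (0.08 ± 0.14) were within their error.

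Large-subunit factors were 11 of 11 higher in Lgr5-high cells with low Ki67, with a median of 0.22, and 10 of 11 lower in Ki67-low cells at medium Lgr5, with a median of -0.22. Ftsj3, an RNA methyltransferase of large-subunit precursors, measured 7.74 and 7.81 in Lgr5-high Ki67-high, 7.78 and 7.96 in Lgr5-high Ki67-low, 7.76, 7.68, 7.75 and 7.76 in Lgr5-medium Ki67-high, and 7.46 and 7.56 in Lgr5-medium Ki67-low arrays. Only the Lgr5-medium Ki67-low arrays lay below the rest, 0.36 ± 0.09 below Lgr5-high Ki67-low (95% interval 0.15 to 0.57, adjusted p = 0.0826). Rrp15 measured 6.89 and 6.93 in Lgr5-high Ki67-high, 6.96 and 7.02 in Lgr5-high Ki67-low, 6.93, 6.80, 6.80 and 7.20 in Lgr5-medium Ki67-high, and 6.57 and 6.59 in Lgr5-medium Ki67-low arrays. It shared that pattern, at 0.42 ± 0.13 (adjusted p = 0.15), and was 0.36 lower in Ki67-low than Ki67-high cells at medium Lgr5 (adjusted p = 0.147). Noc2l, a partner in pre-ribosome transport, measured 8.03 and 8.02 in Lgr5-high Ki67-high, 8.08 and 8.16 in Lgr5-high Ki67-low, 7.84, 7.93, 7.94 and 7.66 in Lgr5-medium Ki67-high, and 7.73 and 7.79 in Lgr5-medium Ki67-low arrays. Its arrays separated by Lgr5 level, at 0.27 ± 0.07 (adjusted p = 0.0556), and it passed without Lgr5-medium Ki67-high replicate 4 (adjusted p = 0.0295). Pes1, Bop1 and Wdr12 form one complex but did not share a pattern. Bop1 measured 7.88 and 7.96 in Lgr5-high Ki67-high, 7.99 and 7.99 in Lgr5-high Ki67-low, 8.09, 8.14, 8.44 and 8.12 in Lgr5-medium Ki67-high, and 7.99 and 7.96 in Lgr5-medium Ki67-low arrays. It was 0.28 ± 0.10 lower in Lgr5-high than in Lgr5-medium cells with high Ki67 (adjusted p = 0.24). Between the Ki67-low groups Wdr12 stood at 0.31 ± 0.16, Pes1 at 0.05 ± 0.09 and Bop1 at 0.01 ± 0.12. A dimmer probe set of Pes1 and one of Pno1 had the opposite sign there, while a dimmer one of Wdr12 had the same sign. The other large-subunit genes in that comparison were Nop16 at 0.27 ± 0.10, Rrs1 at 0.22 ± 0.14, Nip7 at 0.20 ± 0.22, the RNA methyltransferase Nop2 at 0.17 ± 0.09 and Rrp1 at 0.07 ± 0.09.

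Other factors of ribosome biogenesis were read from a second list, of which 108 of 124 genes were measured. Between the Ki67-low groups 98 of 108 were higher in Lgr5-high cells, with a median of 0.17, and at medium Lgr5 98 of 108 were lower in Ki67-low cells, with a median of -0.19. By limma 2 passed as lower in the latter comparison (0.93% of all genes did): Tbl3, a small-subunit processome protein, at -0.50 ± 0.09 (adjusted p = 0.0109), and Wdr18, a large-subunit factor, at -0.45 ± 0.09 (adjusted p = 0.0283). Averaged over Ki67, 2.4% of all genes passed as higher in Lgr5-high cells and 3.52% as lower. In that comparison Ppan (0.29 ± 0.06, adjusted p = 0.0192), Taf1a of the Pol I initiation factor (0.26 ± 0.06, adjusted p = 0.0313) and Rcl1 (0.27 ± 0.07, adjusted p = 0.0457) were higher in Lgr5-high cells. Tbl3 was lower there, at -0.26 ± 0.07 (adjusted p = 0.0476), and it measured 7.91, 8.06, 7.99 and 7.87 in Lgr5-medium Ki67-high arrays but 7.35 to 7.53 on the other 6. Ribosomal protein genes encode the proteins that these factors assemble. Of 68 measured, 67 were higher in Lgr5-high cells with low Ki67, with a median of 0.13, and 62 with high Ki67, with a median of 0.09, or 40 after centring the arrays. None of the 68 passed in limma in either comparison (2.84% of all genes did with low Ki67 and 0.935% with high Ki67). Myc itself measured 9.58 and 9.52 in Lgr5-high Ki67-high, 9.70 and 9.99 in Lgr5-high Ki67-low, 9.02, 9.24, 9.25 and 8.64 in Lgr5-medium Ki67-high, and 9.32 and 9.15 in Lgr5-medium Ki67-low arrays. All Lgr5-high arrays lay above all Lgr5-medium arrays, and Myc was 0.56 ± 0.13 higher in Lgr5-high cells averaged over Ki67 (adjusted p = 0.0312). This call was lost when any 1 of 6 arrays was left out (adjusted p from 0.0574 to 0.148). These were Lgr5-high Ki67-high replicates 1 and 2, Lgr5-high Ki67-low replicate 2, Lgr5-medium Ki67-high replicate 1 and both Lgr5-medium Ki67-low arrays. Mxd4, a MYC antagonist, was higher in Ki67-low cells at medium Lgr5, at 0.41 ± 0.09 (adjusted p = 0.0389).

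Genes of other cell types differed in the same group in which the ribosome biogenesis genes were lowest. Markers were counted as higher where they passed in limma (adjusted p under 0.05) in Lgr5-medium Ki67-low against Lgr5-medium Ki67-high cells. This held for 11 of 13 tuft cell markers, 16 of 16 enteroendocrine markers and 8 of 10 goblet cell markers, and for 499 of all 18820 genes. The summed level of the tuft markers was 11.02 to 11.78 (log2) in Lgr5-medium Ki67-low and 8.26 to 9.20 in the other groups. For enteroendocrine markers it was 13.02 to 13.04 against 9.68 to 11.08, and for goblet markers 14.85 to 15.01 against 13.65 to 14.11. Of Paneth markers 2 of 7 passed as higher, and of immune markers 1 of 14. The means of the immune markers Laptm5, Lyz2 and Itgae were all higher, so markers that did not pass may also measure higher. Summed immune levels were 10.15 to 10.41 against 9.09 to 9.93, but bright genes dominate a sum. Lyz2 alone measured 9.93 on Lgr5-medium Ki67-low replicate 1, where the sum was 10.41. The mean deviation of the 14 immune markers overlapped, at 0.17 and 0.59 against -0.54 to 0.25 on the arrays of the other groups. None of 11 enterocyte or 10 stromal markers passed in that comparison. Of 20 genes of G2 and mitosis, 18 passed as lower in the same comparison (0.93% of all genes did), with a median of -0.70 over the 20. Their median was -0.38 in Lgr5-high cells, where none of the 20 passed. The part of the other cell types and of the cell cycle in the ribosome biogenesis result was not tested.

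**Figure D5:**
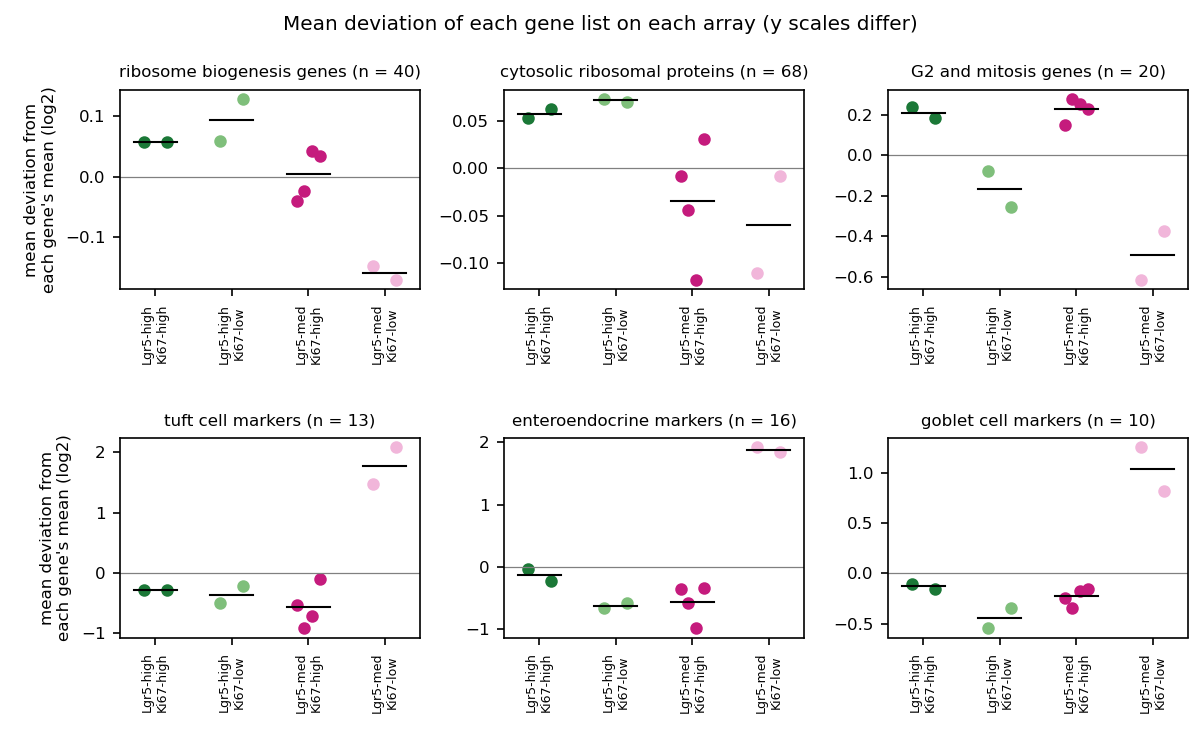
Mean log2 deviation from each gene's mean (y axis, scales differ) for 6 gene lists on each array (points) by sort group (x axis), with group means as bars. The ribosome biogenesis genes are lowest, and the tuft, enteroendocrine and goblet markers highest, on the 2 Lgr5-medium Ki67-low arrays.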

How the data were processed

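Gene expression was measured on 10 Affymetrix Mouse Gene ST 1.1 arrays of sorted cells in 4 groups. The deposited table holds values of the authors for 35556 probe sets, read as log2 because they lie between 1.16 and 13.76. MAS5 and GCOS are named in the submitters' processing notes, with no role stated. How the values were normalized, and their log base, is not given in the sources used here. Background values were not used here, so the number of arrays limits the precision. Another log base would change the unit of a difference and not its direction or test.

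Of the probe sets, 21218 had 1 gene symbol, 1881 had several and 12457 are unnamed here. The brightest probe set of each gene gave 18820 genes. Group means were compared with limma 3.58.1 in R 4.3.3 (lmFit, eBayes, all 10 arrays, 6 residual degrees of freedom), with Benjamini-Hochberg adjustment over all genes at 0.05. The code was tested on simulated data. Values on every array are given for the 3 genes of each role with the smallest p in any comparison and for the genes with the largest and smallest difference in each comparison of 2 groups. From each other list up to 3 genes with the smallest p could be named, besides Myc, Lgr5 and Mki67. The members and lists were chosen with earlier results of these data known. Intervals are 95% intervals of limma. No 2 arrays were identical. Replicate numbers did not pair the arrays, with same-number correlations of deviations from -0.30 to 0.01. Between arrays of different number these correlations ranged from -0.45 to 0.45, so structure shared under other numbers is not excluded. Alternatives were other scalings, array weights, a filter on dim genes, a replicate block, every row of the table, only the groups compared, and leaving out each array.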

Additional observations from a re-analysis of the deposited data

Results flagged for a closer look

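In the Lgr5-medium Ki67-high group, the only one with 4 arrays, 7 of the 40 genes had 1 array far from the other 3 by Dixon's test, which chance gives in about 1 in 20 groups. Replicate 4 was that array for 5 of them. It was low for Ncl (10.55, the others 10.79 to 10.81) and Ddx21 (8.81, the others 9.06 to 9.10). It was high for Nop10 (10.60, the others 10.13 to 10.20), Nop16 (9.99, the others 9.76 to 9.78) and Nip7 (7.48, the others 6.76 to 6.81). Replicate 3 was high for Bop1 (8.44, the others 8.09 to 8.14), and replicate 2 was low for Ftsj3 (7.68, the others 7.75 to 7.76).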

How the results depend on the processing

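No call reversed, but the member median for Lgr5 at high Ki67, 0.04 as deposited, changed sign with centring. Centring the arrays gave member medians of -0.30 (Ki67 at medium Lgr5), -0.0393 (Lgr5 at high Ki67), 0.33 (Lgr5 at low Ki67), -0.12 (Ki67, averaged) and 0.36 (interaction). It called 6 of 40 members for Ki67 at medium Lgr5 (6.29% of all genes) and 2 (Ftsj3, Gar1) for Lgr5 at low Ki67 (3.09% of all genes). It moved the median of all genes by over 0.1 for Ki67 at medium Lgr5 and for the interaction (0.02 to 0.17). For Ki67 at medium Lgr5, genes called over all were 674 as deposited (74% of them higher) and 1184 centred (35.2%). The share higher also moved from 55.7% to 40.3% for Lgr5 at high Ki67, from 23.2% to 43.5% for Lgr5 at low Ki67 and from 72.1% to 58.1% for Ki67 averaged. Quantile normalization gave medians of -0.12 (Ki67 at medium Lgr5) and 0.0854 (Lgr5 at high Ki67), and 3 calls of 40 for Lgr5 averaged (Noc2l, Nop14, Wdr43), against 6.36% of all genes. Array weights called 1 member (Rrp9) for Ki67 at medium Lgr5 (4.63% of all genes). They called 2 (Ncl, Wdr43) for Lgr5 at high Ki67, where calls over all genes went from 176 to 1135 (6.03%). For Lgr5 averaged they called 11, where calls over all genes went from 1115 to 1975 (10.5%). Weights also took calls over all genes from 534 to 803 for Lgr5 at low Ki67, from 233 to 530 for Ki67 averaged and from 196 to 299 for the interaction. With the replicate block, the median for Lgr5 at high Ki67 was 0.0859 and Lgr5 averaged had 0 member calls (3.97% of all genes), with Ncl at adjusted p = 0.0818. The block took calls over all genes from 674 to 352 for Ki67 at medium Lgr5, from 176 to 6 for Lgr5 at high Ki67 and from 196 to 128 for the interaction. A crossed pairing of the Ki67-low groups, added after seeing a correlation of -0.30, called 1 member (Polr1a) and 1238 genes, against 0 and 202 as numbered. Testing every row gave 0 member calls for Lgr5 averaged, and over all genes 521 there, 398 for Ki67 at medium Lgr5, 7 for Lgr5 at high Ki67, 268 for Lgr5 at low Ki67, 90 for Ki67 averaged and 109 for the interaction. Fitting only the groups compared gave 373 for Ki67 at medium Lgr5, 107 for Lgr5 at high Ki67 and 274 for Lgr5 at low Ki67. Leaving out 1 Lgr5-medium Ki67-high array gave 0 to 1 member calls for Ki67 at medium Lgr5 and 0 to 1 for Ki67 averaged. That 1 was Rrp9, without replicate 1 (3.41% and 1.11% of all genes). It gave 0 to 2 for Lgr5 at low Ki67 and 0 to 8 for Lgr5 averaged, the highest without replicate 4 (4.89% and 9.08% of all genes). Over all genes, leaving out 1 array gave 0 to 327 calls for Lgr5 at high Ki67. Medians then ranged from 0.0106 to 0.0814 for Ki67 at high Lgr5 and from 0.0207 to 0.0802 for Lgr5 at high Ki67. Without Lgr5-medium Ki67-high replicate 4, members without overlap were 15 for Lgr5 at high Ki67 with Lgr5-high higher (19.8% of all genes). For Ki67 at medium Lgr5 with Ki67-low lower they were 19 (19.1% of all genes).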
